A study of Drosophila melanogaster with 12 samples.

Results

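The proteasome genes examined here are 32 of the 5954 genes with linear RNA values in stage 14 follicles of Drosophila melanogaster. They were chosen by name, as all listed genes whose symbol begins with Prosalpha, Prosbeta, Rpn plus a digit or Rpt plus a digit. Apart from a gene being listed, this naming rule uses no expression value. The set was chosen with earlier results of these data known. They comprise 14 subunits of the core particle, 10 of the base and 8 of the lid. The follicles came from ovaries of Oregon R flies, a common wild-type stock, and both groups share that genotype with no further allele or treatment. The series is titled as a study of aging follicles and compared linear RNA at day 2 with linear RNA at day 12, with 3 libraries per day. The labels do not say from which event the days are counted, how many ovaries were pooled, or whether the libraries kept the strand. The deposited values are means of the 3 libraries per day, so no SD and no value of a single library can be given. In whole-tissue RNA, fewer cells of a type and less RNA per cell cannot be told apart.

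The proteasome is the protease that degrades proteins tagged with ubiquitin. Its core particle is a barrel of alpha rings, which gate the entry, and beta rings, which carry the proteolytic sites inside. The regulatory particle caps the barrel: its base binds ubiquitin and unfolds the substrate with a ring of Rpt ATPases, and its lid removes the ubiquitin chain. A stage 14 follicle holds a mature oocyte that transcribes little, and the maternal proteasome destroys cyclins and other proteins when meiosis resumes and the egg is activated.

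All 32 genes, drawn from those listed, had values above 0 on both days. Most stood at almost the same level on day 2 and day 12. The 32 genes summed to 8707 at day 2 and 8559 at day 12, which was 1.39% and 1.35% of all listed abundance. The abundances are in the authors' own unit. StringTie, named in the submitters' processing notes, reports abundance per transcript length, and the deposited table does not state whether these values are FPKM or TPM. The log2 ratio of day 12 over day 2, taken from each gene's transcripts summed per day, lay within 0.1 of 0 for 24 of the 32 genes. The same held for 2214 of 5952 genes with a finite ratio, or 37.2%, and for 41.6% of the 1083 genes with a mean abundance of at least 100. The median log2 ratio was -0.0058 for the 32 genes, with 15 higher and 17 lower at day 12. Over all genes it was 0.043, with 3481 higher and 2471 lower, and over genes with a mean of at least 100 it was 0.085.

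No proteasome transcript was called at an adjusted p under 0.05 in the authors' deposited table, among 47 listed transcripts of the 32 genes. Of all 10162 listed transcripts 18 were called, or 0.177%. At an unadjusted p under 0.05, 8 of the 47 transcripts passed, or 17.0%, against 16.0% of all transcripts. Of these 8, 2 had the higher mean at day 12, where 9.47% of all transcripts passed, and 6 had the lower mean, where 6.56% passed. The share of proteasome transcripts with a low p was thus close to that of the table. The deposited table gives no direction for its p, so directions here are those of the means.

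**Figure D1:**
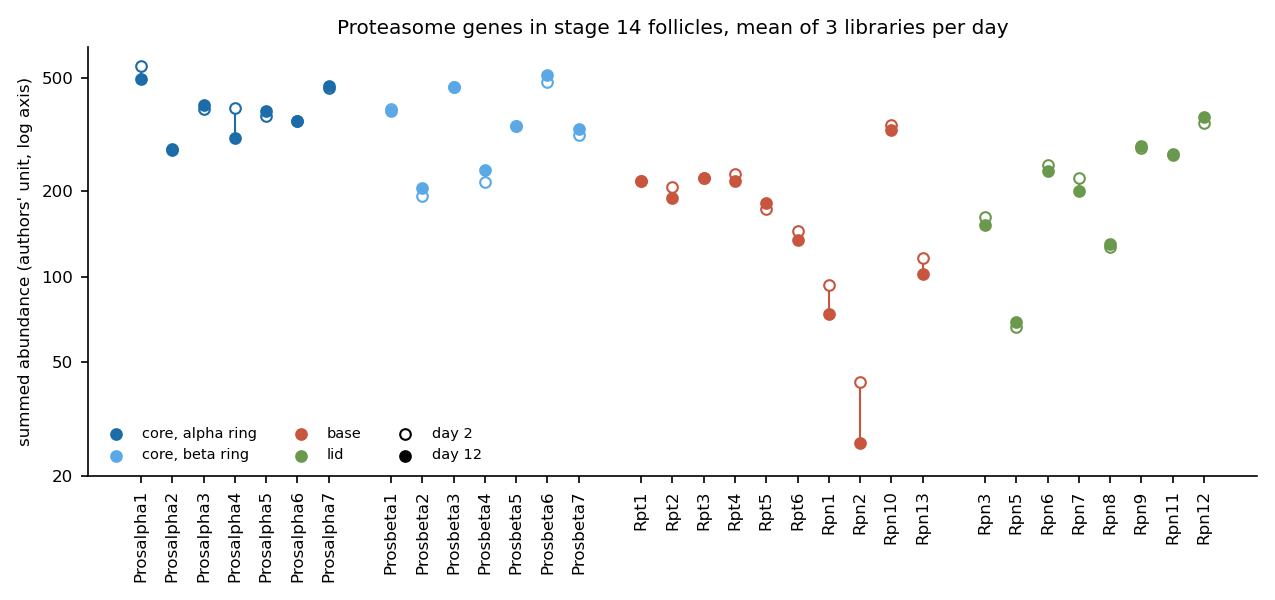
Summed abundance of each proteasome gene at day 2 (open circles) and day 12 (filled circles), in the authors' unit on a log axis; each point is the authors' mean over 3 libraries, and colours mark the alpha ring, beta ring, base and lid. For most genes the circles nearly coincide; Prosalpha4, Rpn1 and Rpn2 show the widest gaps, and Rpn2 is the lowest gene on both days.

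The alpha ring was level except for Prosalpha4 and Prosalpha1, which were lower at day 12. Alpha subunits form the outer rings, whose tails close the pore of the core until a regulatory particle docks. Prosalpha4 went from 393 to 308, a log2 ratio of -0.35, and the authors' deposited table gives p = 0.000547 and adjusted p = 0.0876. This was the lowest adjusted p of all 47 proteasome transcripts and did not pass the threshold. Prosalpha4 has 1 listed transcript, of 3 exons and 1176 nt, and lies on the plus strand of the X chromosome from 16276270 to 16277587, with no other annotated gene in its span. Its rank by abundance among the 32 genes went from 5 to 13, the largest shift in rank within the set. The other single-transcript alpha genes differed little: Prosalpha2 was at 281 and 279, and Prosalpha3 at 388 and 400. Prosalpha5 was at 369 and 381, and Prosalpha7 at 460 and 469. Prosalpha6, with a main and a minor transcript, summed to 354 and 353. These 5 genes all lay within 0.05 of 0 on the log2 scale.

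Prosalpha1 had the highest sum of all 32 genes at day 2, 551, and was at 495 at day 12. Its log2 ratio was -0.15. The lowest p of its 5 listed transcripts was 0.0918 in the authors' deposited table. It belongs to a minor transcript that was higher at day 12, at 0.965 and 2.81. The other transcripts were lower at day 12, with p of 0.416 to 0.929 in the authors' deposited table. All 5 transcripts were assembled by the authors. The gene has a duplicated copy 1734 bp away on chromosome arm 2R, called CG30382 in the deposited table and Prosalpha1R in the annotation, whose 4 transcripts summed to 213 and 197. How reads were shared between the copies is uncertain. Both copies together came to 765 at day 2 and 692 at day 12, a log2 ratio of -0.14, and each copy had the lower mean at day 12.

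The beta ring was slightly higher at day 12, by 6 of its 7 genes in the values as deposited. The same side held 58.5% of all genes and 73.3% of genes with a mean of at least 100. With the listed total of each day or the median of all genes as the scale, Prosbeta3 and Prosbeta5 change to the lower side and 4 of 7 are higher. The median log2 ratio of the ring was 0.078, against 0.085 for genes with a mean of at least 100. The 7 genes of the ring summed to 2396 and 2473. Among the proteolytic subunits, Prosbeta1, with caspase-like activity, was at 388 and 381. Prosbeta2, with trypsin-like activity, was at 192 and 205, the lowest level of the core on both days. Prosbeta5, with chymotrypsin-like activity and the main target of proteasome inhibitors, was at 339 on both days. The proteolytic sites thus had log2 ratios of -0.03, 0.10 and 0.0039 in that order. Of the subunits without proteolytic activity, Prosbeta4 went from 216 to 237, a log2 ratio of 0.13 and the highest ratio among the 32 genes, and the authors' deposited table gives p = 0.0213 and adjusted p = 0.223. Prosbeta6 was at 484 and 513, Prosbeta7 at 314 and 331, and Prosbeta3 at 463 and 466. Prosbeta6 took over the first rank of the 32 genes at day 12 from Prosalpha1.

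In the base 8 of 10 genes were lower at day 12, out of 17 in the whole set, and the median log2 ratio was -0.094. Of the 5952 genes with a finite ratio 2471 were lower, as were 289 of the 1083 genes with a mean of at least 100. The 6 ATPases of the base, Rpt1 to Rpt6, which form the ring that pulls substrates into the core, differed little. Rpt1 was at 217 and 216, Rpt3 at 222 and 223, and Rpt5 at 173 and 181. Rpt4 was at 230 and 217, Rpt2 at 207 and 189, and Rpt6 at 144 and 135. Within the ring, log2 ratios ran from -0.13 for Rpt2 to 0.07 for Rpt5. For Rpt6 the authors' deposited table gives p = 0.0446 and adjusted p = 0.295.

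The 4 base subunits that are not ATPases were all lower at day 12. Rpn2, the large scaffold on which the base is built, went from 42.8 to 26.1, a log2 ratio of -0.71 and the widest difference among the 32 genes. The lowest p of its 3 transcripts was 0.498 in the authors' deposited table, so none of them passed at any threshold used. The difference of the Rpn2 sum itself was not tested. Rpn1, the scaffold that in yeast and mammals docks ubiquitin shuttles and a deubiquitinase, went from 93.6 to 74.0, with a log2 ratio of -0.34. For it the authors' deposited table gives p = 0.0302 and adjusted p = 0.254. The ubiquitin receptor Rpn13 went from 117 to 103, with a log2 ratio of -0.19, and the receptor Rpn10, which sits between base and lid, from 343 to 328, with a log2 ratio of -0.06. Rpn1, Rpn10 and Rpn13 are the ubiquitin receptors of the particle, and all lay on the lower side of 0 without a call. These 4 genes summed to 596 and 531, against 1194 and 1162 for the 6 ATPases.

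The lid was level, with 4 genes higher, 4 lower and a median log2 ratio of 0.0045. Rpn11, the metalloprotease that cuts the ubiquitin chain off the substrate, was at 271 and 268. The authors' deposited table gives it p = 0.00422 and adjusted p = 0.143, the second lowest of the 47 transcripts, at a log2 ratio of -0.01. Its inactive partner Rpn8 was at 127 and 130. The other lid subunits are scaffold proteins with a PCI domain. Rpn12 was at 347 and 366, Rpn9 at 282 and 287, and Rpn6 at 247 and 236. Rpn7 was at 222 and 200, with the lowest log2 ratio of the lid, -0.15, and Rpn3 was at 162 and 152. Rpn5 had the lowest level of the lid, 66.7 at day 2 and 69.5 at day 12.

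Set side by side, the median log2 ratio was 0.019 for the 14 core genes, -0.094 for the 10 base genes and 0.0045 for the 8 lid genes. The core had 9 genes higher and 5 lower at day 12. Less the median of all genes, the core and lid medians change sign, to -0.025 and -0.038, and the base stays the lowest of the 3 at -0.14. The ranges overlap: log2 ratios ran from -0.35 to 0.13 in the core, from -0.71 to 0.07 in the base and from -0.15 to 0.08 in the lid. With means only, the difference between the particles could not be tested across libraries. By the sums, the core went from 5192 to 5158, the base from 1790 to 1692 and the lid from 1724 to 1709.

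**Figure D2:**
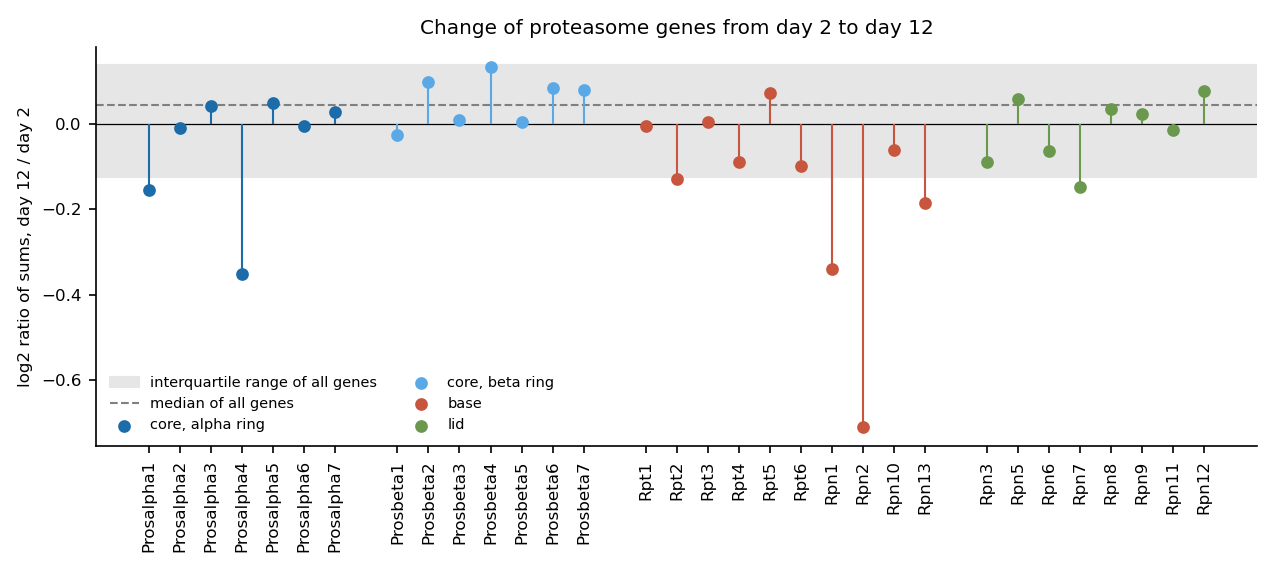
Log2 ratio of day 12 over day 2 for the summed abundance of each proteasome gene, by ring or particle; the grey band is the interquartile range of all genes and the dashed line their median. Of the 32 genes 15 lie above 0, and those farthest below are Rpn2 at -0.71, Prosalpha4 at -0.35 and Rpn1 at -0.34.

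The order of the genes by abundance was nearly the same on both days. Across the 32 genes, log2 levels of day 2 and day 12 had a Spearman rho of 0.976 and a Pearson r of 0.988, as a description across genes, which are not independent replicates. Whether the deposited values are scaled by transcript length is not stated. In the authors' unit, core genes stood highest, with a median of 379 at day 2 and 367 at day 12. The lid had medians of 234 and 218, and the base of 190 and 185. Levels within each particle were uneven although each subunit enters it in equal number: at day 2 the core ran from 192 for Prosbeta2 to 551 for Prosalpha1, and the base from 42.8 for Rpn2 to 343 for Rpn10.

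Levels went with transcript length. In the 31 genes whose most abundant transcript is annotated, Spearman's rho between length and mean abundance was -0.80, and Pearson's r on log scales was -0.83. Over 5241 genes of the table the rho was -0.31 and the r -0.28. Core transcripts were the shortest, with a median of 973 nt, against 1483 nt for the base and 1425 nt for the lid. Rpn1 with 3041 nt and Rpn2 with 3325 nt were the longest of the set and were among the 3 genes of lowest abundance. The log2 ratio went with length too, with a rho of -0.50 and an r of -0.70 among the 31 genes. Without Rpn1 and Rpn2 the rho was -0.40 and the r -0.36. For the 5241 genes of the table the rho was -0.21 and the r only -0.099. Over all genes, the median log2 ratio was 0.075 for 1050 genes under 1000 nt and -0.047 for 1599 genes of at least 2500 nt. The part of length in the order of the particles was not tested.

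**Figure D3:**
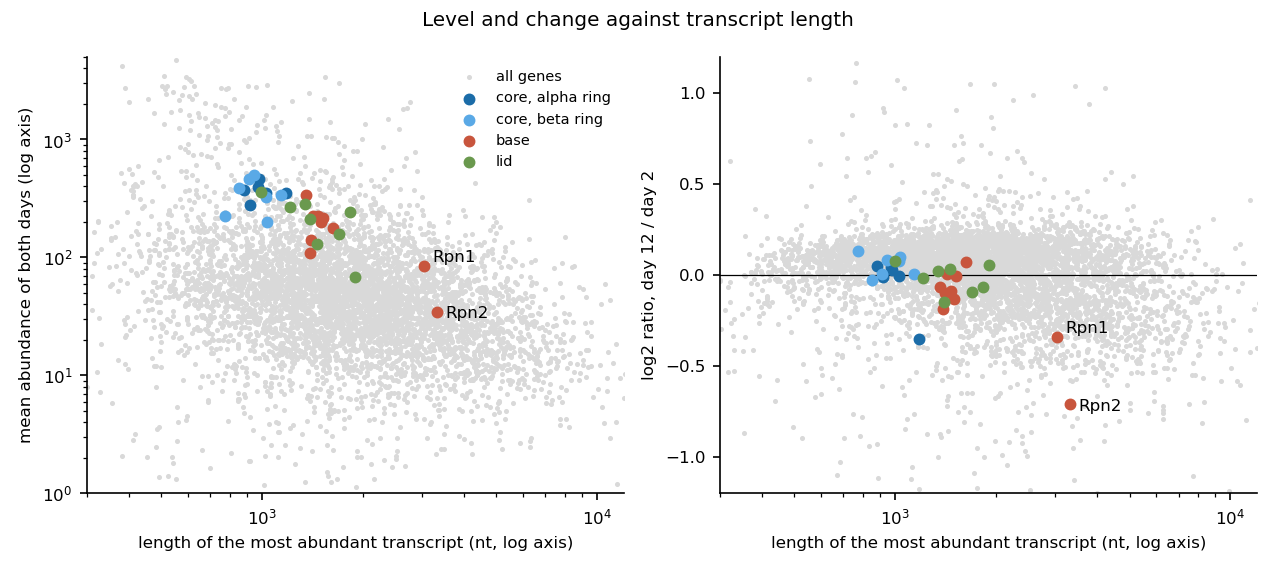
Mean abundance of both days (left, log axis) and log2 ratio of day 12 over day 2 (right) against the length of the most abundant transcript, for proteasome genes in colour and all genes with an annotated main transcript in grey; each point is a gene and the axes leave out extreme grey points. The coloured points run downward from left to right in both panels, with Rpn1 and Rpn2 at the far right and low.

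Of the 32 genes 25 had 1 listed transcript, or 78.1%, against 64.4% of all genes. In the other 7 the listed transcripts mostly kept their shares, with Rpt2 and Rpn5 as exceptions. Rpt2 lies on the minus strand of chromosome arm 3R from 23929873 to 23931558. Its longer transcript starts 124 nt farther upstream than the shorter one and has the same coding length. The longer transcript went from 68.5 to 0.0124, while the shorter one went from 139 to 189, and both together came to 207 and 189. For these transcripts the authors' deposited table gives p = 0.200 and p = 0.252, so neither difference passed, and without single libraries it is unknown how many of them carried the longer form at day 2. For Rpn5, a transcript assembled by the authors was at 16.9 at day 2 and listed at 0 at day 12, and the annotated one was at 49.8 and 69.5, with p of 0.238 and 0.216 in the authors' deposited table. A transcript of at least 10 on one day and under 1% of that value on the other, in either direction, was counted over all genes. It occurred in 90 of the 2118 genes with several listed transcripts, or 4.25%, with Rpt2 and Rpn5 among them. The gene sums of both Rpt2 and Rpn5 were far more level than their single transcripts.

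Both main transcripts of Rpn2 were lower at day 12, and its minor one was higher. The main forms went from 24.4 to 13.0 and from 18.0 to 11.9, and the minor form from 0.278 to 1.23. The main forms have coding lengths of 1029 and 1020 codons. Rpn13 had 6 listed transcripts, and the most abundant of them took 70.1% of the sum at day 2 and 68.9% at day 12. For Prosbeta5 and Prosalpha6 the main transcript took 95.9% of the day 2 sum, and it took 96.1% and 95.8% at day 12.

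**Figure D4:**
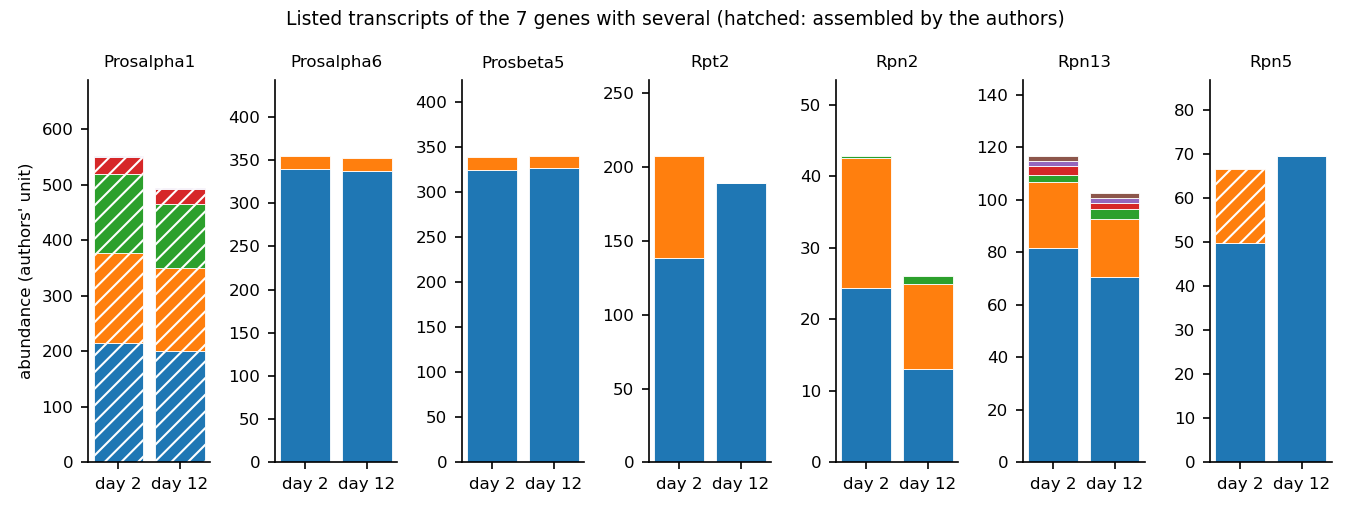
Abundance of each listed transcript, stacked per day, for the 7 proteasome genes with several listed transcripts; each bar is the authors' mean over 3 libraries, colours separate transcripts within a gene, hatching marks those assembled by the authors, and each panel has its own axis from 0. One form of Rpt2 and one of Rpn5 are seen at day 2 but not at day 12, and the bar of Rpn2 is shorter at day 12.

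Among the 8 proteasome transcripts with a low p, Prosalpha4, Rpn1 and Prosbeta4 had log2 ratios of -0.35, -0.34 and 0.13, and others had nearly equal means. Of the 8 transcripts below 0.05 before adjustment in the authors' deposited table, 4 had means within 0.03 of each other on the log2 scale: Rpn11, Prosbeta5, Prosbeta1 and Prosalpha2. Over the table this was the case for 43 of 1629 such transcripts, or 2.64%, and for 708 of all 10162 transcripts at any p. The main Prosbeta5 transcript, for example, was at 325 and 326, with a p of 0.0127 in the authors' deposited table. In the other direction, the main transcript of Rpn2 went from 24.4 to 13.0 with a p of 0.773. The median size of the log2 ratio was 0.062 for the 8 proteasome transcripts and 0.22 for all transcripts with a p under 0.05. At any p the proteasome genes also lay nearer to 0 by their sums, with 24 of 32 within 0.1, against 37.2% of all genes. The deposited table does not state the test and scale behind its p, which need not be those of the means.

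**Figure D5:**
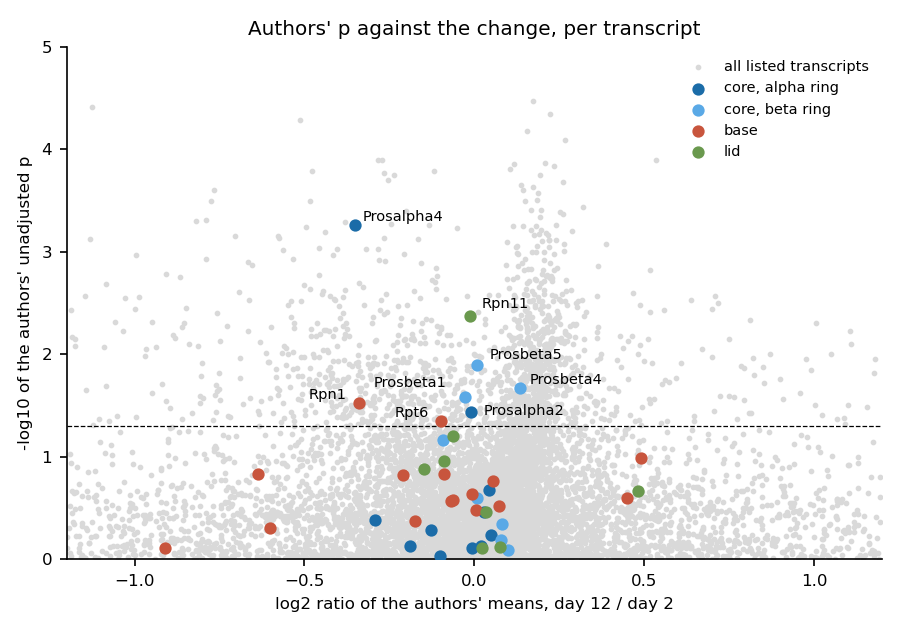
Minus log10 of the authors' unadjusted p against the log2 ratio of the authors' means for listed transcripts with a log2 ratio within 1.2 of 0 (grey: all; colour: proteasome); the dashed line is p = 0.05. The 8 named proteasome transcripts lie above the line, and 4 of them lie within 0.03 of a log2 ratio of 0.

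The genes are spread over the genome, with 10 on 2R, 9 on 3R, 5 on 3L and 4 each on 2L and the X chromosome. Several overlap a neighbour on the opposite strand, where reads cannot be placed if the libraries did not keep the strand. The widest exon overlap was that of Rpt6 with CG1801, 182 bp or 13.0% of the exons of Rpt6, and CG1801 stood at only 18.7 and 16.6. Rpt1 shares its span of 1515 bp with CG17985 of the same strand, with no shared exon base. Prosalpha4, Rpn1 and Rpn2, the genes with the widest differences, overlap no other annotated gene.

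The COP9 signalosome and part of the initiation factor eIF3 are built on the same plan as the lid, from PCI and MPN domain proteins. The eIF3 genes here were taken by name and include subunits outside that part, such as eIF3i. The 7 measured signalosome genes, which code for an enzyme that removes Nedd8 from cullin ligases, had a median log2 ratio of 0.028, with 4 higher and 3 lower and 5 within 0.1 of 0. Its most abundant genes were CSN8, at 95.4 and 94.3, CSN5, at 79.2 and 83.4, and CSN4, at 74.9 and 80.4. For 13 eIF3 genes the median was 0.064, with 9 higher and 4 lower, and 7 lay within 0.1 of 0. The most abundant of them were eIF3i at 437 and 467, eIF3m at 267 and 279 and eIF3h at 246 and 271. Subunits on the lower side included eIF3l at 64.9 and 32.4, eIF3a at 84.4 and 67.3 and eIF3c at 107 and 86.6. For eIF3c the authors' deposited table gives adjusted p = 0.184, and for the main transcript of eIF3l adjusted p = 0.0724. In the authors' unit, the lid genes had a median of 234 at day 2, the eIF3 genes 185 and the signalosome genes 66.6. The CCT chaperonin, a ring complex that folds actin and tubulin, had a median of -0.20 over 8 genes, with 7 lower. By the most abundant transcript, CCT2, CCT5, CCT6 and CCT8 had an unadjusted p under 0.05, as did 22.5% of all genes. Their adjusted p in the authors' deposited table ran from 0.129 to 0.239, so none of them was called. In the CCT chaperonin 1 of 8 genes lay within 0.1 of 0, against 24 of 32 for the proteasome. The differences between these complexes were not tested across libraries.

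Of other genes of the ubiquitin and proteasome system, none was called at an adjusted p under 0.05 by its most abundant transcript. Of 32 such genes looked up by name, 27 were found among the listed genes. Of the 27, 15 were higher and 12 lower at day 12, with a median log2 ratio of 0.018. They differed in both directions, from -0.57 for Ubi-p63E to 0.27 for ntc, and 14 of them lay within 0.1 of 0. An unadjusted p under 0.05 was given to 3 higher and 4 lower genes, 7 in all, against 22.5% of all genes by the most abundant transcript, and 0.218% of all genes were called at an adjusted p under 0.05.

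Among further subunits, activators and assembly factors, 6 of 8 genes were higher at day 12. The same side held 58.5% of all genes and 73.3% of genes with a mean of at least 100. Sem1, a small lid subunit that the naming rule does not take in, was at 568 and 614. REG, the cap that opens the core without ATP or ubiquitin, was at 141 and 160, with a log2 ratio of 0.18, and the authors' deposited table gives p = 0.0178 before adjustment. The F-box protein gene ntc, whose product binds the proteasome regulator PI31, was at 37.7 and 45.4, and the authors' deposited table gives p = 0.0122 before adjustment. Pomp, which guides the joining of core precursors, was at 124 and 126. Of the proteins that bring or edit ubiquitin at the proteasome, the shuttle Rad23 was at 417 and 465, and for its main transcript the authors' deposited table gives p = 0.00117 and adjusted p = 0.0999. The deubiquitinases that bind the particle were level: Usp14 was at 179 on both days, and Uch-L5, the partner of Rpn13, at 207 and 203. For Uch-L5 the authors' deposited table gives p = 0.0342 before adjustment.

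On the supply side, the unfoldase TER94 was at 260 and 197, with a log2 ratio of -0.40, and for its main transcript the authors' deposited table gives p = 0.0205 before adjustment. Its cofactor Npl4 was at 139 and 117, and the authors' deposited table gives p = 0.0307 before adjustment. These values, like that of Rpn1, did not pass adjustment. Of the ubiquitin genes, RpS27A was at 3330 and 3438, RpL40 at 780 and 867 and Ubi-p5E at 791 and 814. The polyubiquitin gene Ubi-p63E was at 272 and 183, and for its main transcript the authors' deposited table gives p = 0.00277 before adjustment. Its 13 listed transcripts and the 19 of Ubi-p5E consist of the same repeated unit, so how reads were shared between them is uncertain. Of the factors that raise proteasome genes when the proteasome is impaired, cnc was at 35.1 and 28.9, its partner maf-S at 89.7 and 94.1, and Pngl, whose counterparts in worms and mammals process the factor, at 14.4 and 14.6. Keap1 was not found by name among the listed genes. From the CTLH ubiquitin ligase, which removes translational repressors in the early embryo, muskelin was at 103 and 102 and RanBPM at 28.1 and 22.9. None of these last 5 genes had an unadjusted p under 0.05 by its most abundant transcript.

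The labelled stage was checked against markers. All 7 oocyte and germline markers were measured, with 5 higher and 2 lower at day 12. The germ plasm organiser osk was at 707 and 845, the posterior determinant nos at 804 and 907, CycB at 1702 and 1900 and the Polo inhibitor mtrm at 247 and 276. On the lower side, vas was at 76.3 and 71.3 and orb at 35.1 and 33.6. Of 5 markers of mature follicle cells only Ilp8 was found by name among the listed genes, at 50.1 and 80.1. The yolk genes Yp1, Yp2 and Yp3 of earlier follicle cells summed to 21.2 at day 2 and 2.43 at day 12, and their part in the proteasome values was not tested. None of the markers of muscle, hemocytes and the male germline was found by name among the listed genes. The same held for the 14 proteasome paralogs of the male germline, whose symbols fall under the naming rule.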

How the data were processed

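The sources are 12 libraries in 4 groups, 3 per day for linear RNA and for circRNA. Groups were read from sample titles. The submitters' processing notes name the tools StringTie, HISAT2, DESeq2 and STAR and the build dm6, without versions or roles. The signal values the authors deposited are mean abundances of 3 libraries per day, and the p-values are the authors' deposited ones, whose adjusted form matched a Benjamini-Hochberg adjustment across all 10162 transcripts. The depth per library is unknown, so no interval is given. The circRNA table names no host gene and was not used.

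Transcripts were summed per gene and day in Python 3.11.15 with pandas 2.3.3, and log2 ratios were taken without a pseudocount or filter. The code was tested on simulated data. Coordinates come from Ensembl release 115 of BDGP6, whose coordinates are those of dm6. All members may be named. Of the other lists, genes with an unadjusted p under 0.05 or among the 3 highest means of a list are named. The genes vas, orb and eIF3a are named outside this rule, as genes with the lower mean at day 12. The members and lists were chosen with earlier results of these data known.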

Additional observations from a re-analysis of the deposited data

How the results depend on the processing

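No paired analysis was possible because the deposited values are means over the 3 libraries of a day, and for the same reason no library could be left out. Transcript calls went from 0 at an adjusted p to 8 at an unadjusted p under 0.05. The results below are compared with the sums as deposited, and a median counts as moved when its second decimal changes.

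With each day's listed total as the scale, the medians were 0.0056 (core), -0.11 (base), -0.0084 (lid) and -0.019 (all 32 genes), and 1 base gene was higher. The core then had 7 higher and 7 lower, all 32 genes 12 higher and 20 lower, and 3 genes changed sign. Less the median of all genes, they were -0.025, -0.14, -0.038 and -0.049, with 5 core, 1 base and 2 lid genes, 8 in all, higher, and 9 core genes and 24 in all lower. In this setting 7 genes changed sign. Single-transcript genes were 11 in the core, 7 in the base and 7 in the lid, 25 in all. Their medians were 0.043, -0.062, -0.014 and 0.0044, with 3 core and 5 base genes lower, and no gene changed sign. With the most abundant transcript, the base was at -0.076 and all 32 genes at -0.00080, and Rpt2 changed sign. Annotated transcripts alone gave 0.029 for the core, and leave out Prosalpha1. With Rpn10 in the lid, the base was at -0.098 and the lid at -0.014. A pseudocount of 1, a mean of at least 10 and, chosen after seeing the data, Prosalpha1 joined with its copy moved no median or count of genes. In every setting run the base median was the lowest of the 3 particles. The cause of these shifts was not tested.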
